A study of Homo sapiens with 8 samples.

Results

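Polypyrimidine tract binding protein (PTB) is an RNA-binding regulator of splicing that recognises pyrimidine-rich stretches, many of them in introns beside regulated exons and some in the ends of messenger RNAs. Crosslinking and immunoprecipitation (CLIP) fixes such contacts in living cells with ultraviolet light, so that the bound RNA can be recovered and mapped. Short-wave UVC links protein directly to RNA bases. Long-wave UVA is generally used with a photoreactive nucleoside fed to the cells beforehand, and the labels name none. The comparison described here sets every peak of PTB crosslinked with UVA against every peak of PTB crosslinked with UVC: 83725 and 118434 peaks, together 202159 of the 266317 peaks in the 5 lists of the series.

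All samples of both arms came from 293T cells, a human embryonic kidney line, that carried a Halo-PTB transgene and were grown under puromycin. The labels do not say that the cells' own PTB was removed. The Halo tag bonds to beads and replaces the gel step of older protocols. Each arm had 2 samples, PTB with UVA and PTB with UVC, but only 1 peak list, so its replicates were combined before deposit and no spread between them can be given. Of the remaining lists, 2 are controls (Halo-PTB cells without UV and Halo-YFP cells with UVC, 2 samples each) and 1 holds published PTB peaks from iCLIP, a gel-based form of the assay, re-derived by the submitters. Sequencing depth is unknown, and the platform of each library is not given, so a depth or platform difference and the wavelength cannot be told apart. A peak also cannot separate an RNA that is bound more from one that is more abundant. The markers of 293T cells were not analysed here.

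Peaks within 20 nt of each other on a strand were merged, which gave 70110 UVA sites and 80531 UVC sites. The sites were counted by 100 kb window and strand, each in the window of its midpoint. Positions are in hg19. UVA sites lay on the plus strand in 50.6% of cases and UVC sites in 51.9%, so the lists had nearly the same strand balance after merging. Before merging the plus strand held 50.8% of UVA peaks and 61.5% of UVC peaks. The excess went with peaks of exactly 11 nt, which made up 1.15% of the UVA list and 18.98% of the UVC list. In the UVC list 87.3% of these short peaks were on the plus strand.

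The sites also differed in shape. UVA sites had widths spread broadly around a median of 40 nt (quartiles 25 and 60), and no single width took more than 1.83% of them. UVC sites had a median of 49 nt (quartiles 39 and 50), and 28.6% were exactly 50 nt wide, against 1.22% of UVA sites. The list of PTB without UV had the same commonest width, with 54.7% of its sites at exactly 50 nt and 30.5% of its peaks at 11 nt, whereas only 0.0926% of YFP sites and 1.21% of iCLIP sites were 50 nt wide. The part of this width pattern in the results below was not tested beyond leaving such sites out.

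**Figure D1:**
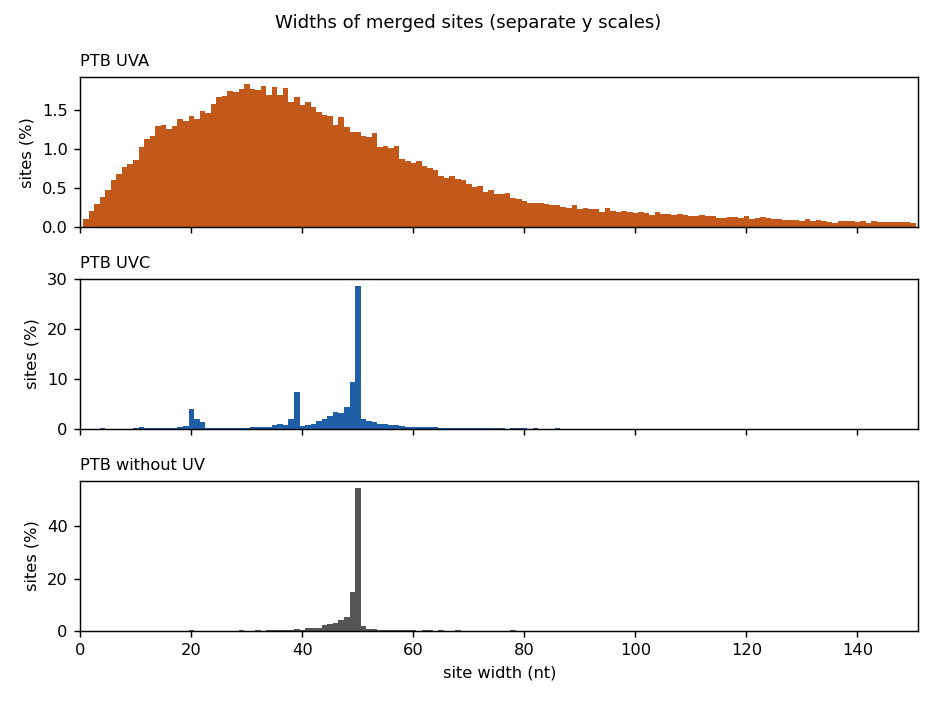
Width of merged sites in nt (x axis) against the percentage of the list's sites with that width (y axis, a separate scale per panel), for PTB UVA, PTB UVC and PTB without UV. UVA widths form a broad hump, while 28.6% of UVC sites and 54.7% of sites without UV stand in a single bar at 50 nt.

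Most windows that one arm reached were also reached by the other. In all, 17606 windows held a site, 12904 of them with UVA sites and 14661 with UVC sites, and 9959 held both kinds. UVA sites were packed into fewer windows: the 2125 fullest windows held 50% of UVA sites, while 2899 windows were needed for 50% of UVC sites. The fullest 1761 windows of each list held 44.6% of UVA sites and 35.9% of UVC sites. The largest number in a window was 62 for UVA and 52 for UVC, and occupied windows had a median of 3 UVA or 4 UVC sites.

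Over windows that held a site of either arm, site numbers in the arms were only loosely related. Over the 17606 windows, Spearman's rho between UVA and UVC numbers was 0.298, beside 0.624 between UVA and iCLIP and 0.550 between UVC and iCLIP. Windows empty in both arms were left out, which pushes the UVA to UVC value down. Windows empty in 1 arm and in iCLIP stayed in, so the values with iCLIP are not like for like with it. These values are descriptions across windows of the same pooled lists, which share the gene content of the genome and are not independent samples. The relation depended on the scale. With windows of 10 kb rho was -0.129, with 1000 kb it was 0.680 and with 5000 kb it was 0.786. The wider the windows, the more alike the arms ranked them. At 10 kb 22.7% of the windows kept were UVA-only and 47.6% UVC-only, so the choice of windows pulls rho down most there. Among the 5673 windows with at least 10 sites in the lists together, rho was -0.228, a value that the minimum on the sum itself pushes down.

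Windows with sites in a single list were common. Of the 17606 windows, 2945 (16.7%) held UVA sites and no UVC site, and 4702 (26.7%) held UVC sites and no UVA site. Most were sparse, and they took 9.61% of UVA sites and 20.7% of UVC sites. With at least 5 sites there were 320 UVA-only windows (3.3% of the 9706 windows of that size) and 1245 UVC-only windows (12.8%). With at least 10 sites 83 and 307 remained, and with at least 20 sites 4 and 16. The order of the arms changed with the settings. When sites of exactly 50 nt were left out of both lists, which removed 1.22% of UVA and 28.6% of UVC sites, 4123 windows were UVA-only and 3766 UVC-only, and with windows of 1000 kb the numbers were 440 and 337. With only sites at or above their list's median score the gap was wider, at 1191 UVA-only and 5734 UVC-only windows, and with strand ignored the numbers were 1819 and 3691. Why the order changed was not tested.

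Over all windows 10.4% held a site of PTB without UV and 4.98% a YFP site, and the shares in windows of a single list lay below these. Among the UVA-only windows 29 (0.985%) held a site of PTB without UV and 25 (0.849%) a YFP site. Among the UVC-only windows 399 (8.49%) held a site without UV and 158 (3.36%) a YFP site. In the windows of at least 10 sites, 1 of 83 UVA-only windows (1.20%) and 55 of 307 UVC-only windows (17.9%) held a site without UV, against 19.3% of all windows of that size. A YFP site was found in 1 of these UVA-only windows (1.20%) and in 31 of these UVC-only windows (10.1%). Over all windows of that size the YFP share was 9.87%, so the UVC-only share was not lower there. Published iCLIP sites were present in 875 UVA-only windows (29.7%) and 1556 UVC-only windows (33.1%), against 10563 of all 17606 windows. In the windows of at least 10 sites they were present in 64 UVA-only (77.1%) and 214 UVC-only windows (69.7%), against 93.1% of all windows of that size.

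To describe imbalance, each window's share of all UVA sites was divided by its share of all UVC sites, after 0.5 was added to each count. Windows of at least 10 sites with a ratio of 3 or more are called UVA-high, and those with the inverse of that ratio 3 or more are called UVC-high. This is a rule of size, not a test. It did not require sites in both lists, so the classes include the 83 UVA-only and 307 UVC-only windows of at least 10 sites. Of 5673 windows, 941 (16.6%) were UVA-high and 1032 (18.2%) UVC-high. The median ratio was 1.15 (quartiles 0.464 and 2.33), and 2520 windows (44.4%) lay within 2-fold of even. The 50 windows just inside the UVA-high limit had ratios of 3.03 to 3.12 and the 50 just outside 2.83 to 2.99, so the limit separates no distinct group. On the UVC side the 50 just inside had ratios of 0.313 to 0.332 and the 50 just outside 0.333 to 0.338.

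The UVA-high windows held 14223 UVA and 2844 UVC sites, or 20.3% and 3.53% of each list. The UVC-high windows held 1488 UVA and 14319 UVC sites, or 2.12% and 17.8%. Which class was larger depended on the choice of sites. With only sites at or above their own list's median score, 515 windows were UVA-high and 207 UVC-high. With sites of exactly 39 or 50 nt left out the numbers were 872 and 659, and with peaks within 1000 nt counted as 1 site they were 347 and 511.

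**Figure D2:**
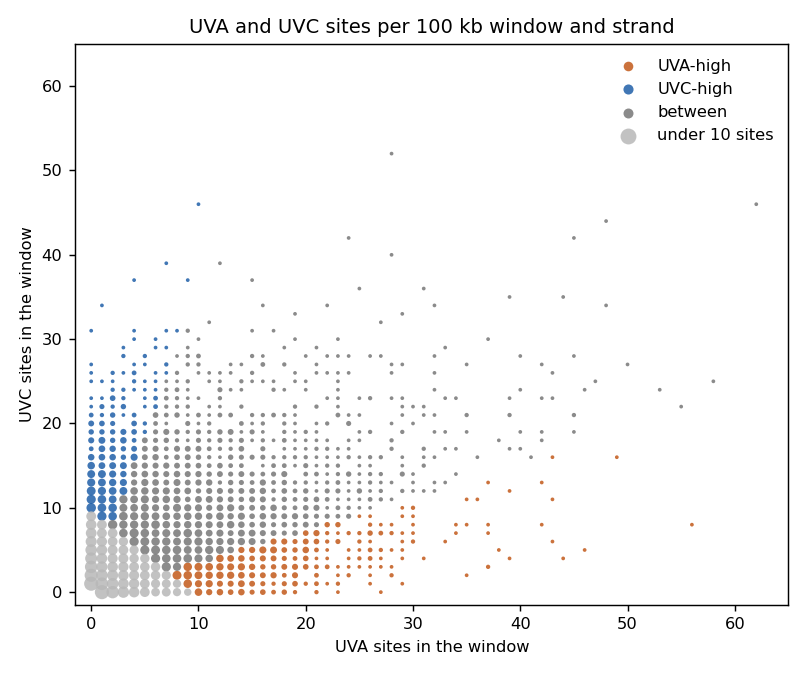
Number of UVA sites (x axis) and UVC sites (y axis) in each 100 kb window and strand; a larger point stands for more windows, on a log scale, and colour gives the class. UVA-high windows lie along the x axis, up to 56 UVA against 8 UVC sites, and UVC-high windows along the y axis, up to 10 UVA against 46 UVC sites.

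The 10 most uneven UVA-high windows were ranked by the lower bound of the exact (Clopper-Pearson) 95% interval of the UVA share of their sites; over all sites that share was 46.5%. Together they held 230 UVA and 3 UVC sites, and 8 of them held no UVC site. Ratios of single windows are of the site shares with nothing added to the counts. Where a list had 0 sites in a window, the ratio was computed with 3 sites in place of 0. Such a ratio is not a bound of the 95% interval. Intervals here and below cover counting error only and treat sites as independent, which clustered sites are not. The named windows were picked by the same counts, and their intervals do not allow for that choice. They are therefore no support for the imbalance of a named window. Gene names given with windows come from general knowledge of hg19, since no annotation of that build was used, and only where 1 or a pair of well-known genes fill the sites' span.

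First was, on the minus strand, a window of chromosome 2 from 152500001 to 152600000, with 27 UVA sites, 0 UVC sites and 0 sites in the iCLIP and control lists. It lies in NEB, which encodes nebulin, a giant protein of muscle thin filaments. Its UVA sites ran from 152507472 to 152590311 and covered 1084 nt. With the stated replacement for 0 UVC sites, the window's UVA site share was 10.3 times its UVC site share. The UVA share of its sites was 100% (interval 87.2 to 100). The UVA sites had a median score of 25, with the highest at 94, where the UVA list has a median of 80. The scores are the authors' own peak values and rank sites only within a list. The windows on either side held 2 and 5 UVA sites, against 1 and 7 UVC sites, so the excess did not continue into them.

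RYR1, another giant muscle gene, was also among the 10. RYR1 encodes the calcium release channel of skeletal muscle. Its window, chromosome 19 from 38900001 to 39000000, plus strand, held 19 UVA and 0 UVC sites between 38924663 and 38981188. With the stated replacement for 0 UVC sites, the window's UVA site share was 7.27 times its UVC site share. The window had 1 iCLIP site and no control site. The window from 117000001 to 117100000 on chromosome 11 (minus strand) held 21 UVA and 0 UVC sites, all within 117075631 to 117099095, where PCSK7 lies, a gene for a protein-cleaving convertase. Here 12 iCLIP sites were found, and 5 of the 21 UVA sites overlapped one. Its UVA scores reached 611, around a median of 34. On the opposite strand of the same window 29 UVA and 9 UVC sites were found.

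The remaining 7 windows of this rank hold several genes each on their strand or none that could be named with certainty. The second, on the plus strand of chromosome 19 from 52900001 to 53000000, held 23 UVA and 0 UVC sites and 4 iCLIP sites. The third, on the plus strand of chromosome 6 from 3200001 to 3300000, held 21 UVA and 0 UVC sites, packed between 3259254 and 3278787, and 6 of the UVA sites overlapped an iCLIP site. On the plus strand of chromosome 22 from 21300001 to 21400000 there were 29 UVA sites and 1 UVC site, a ratio of 33.3 with a counting interval of 5.52 to 1360. The 100 kb of chromosome 3 from 50300001 to 50400000, minus strand, had the most UVA sites of the 10, with 35 against 2 UVC sites, a ratio of 20.1 (interval 5.16 to 173). The other three, each with 0 UVC sites, held 19 UVA sites on the minus strand of chromosome 1 from 228500001, 18 on the plus strand of chromosome 1 from 110200001 and 18 on the plus strand of chromosome 3 from 44700001. Across the 10 windows the median UVA score ran from 20.5 to 74, below the list's median of 80 in each.

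The 10 most uneven UVC-high windows held 1 UVA site and 251 UVC sites, and 9 of them had no UVA site. Each lay in a stretch that general knowledge of hg19 gives to a single long gene. How many other windows lie in such a stretch was not counted, so this cannot be read as a trait of the class. CLASP2, which binds the growing ends of microtubules, came first: the window from 33600001 to 33700000 on chromosome 3 (minus strand) held 0 UVA and 31 UVC sites between 33609536 and 33684409. With 3 UVA sites in place of 0, its UVC site share was 8.996 times its UVA site share (UVA share of sites 0%, interval 0 to 11.2). The same window had 12 iCLIP sites, on which 1 of the 31 UVC sites lay, and no control site. In the neighbouring windows UVA had 0 and 0 sites and UVC 10 and 6.

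The next windows by rank were in SEMA6A (a guidance receptor and ligand) on chromosome 5, with 0 UVA and 27 UVC sites, and in DENND1B (a regulator of membrane traffic) on chromosome 1, with 0 UVA and 26 UVC sites. RNF217 (a ubiquitin ligase) on chromosome 6 had 0 UVA and 25 UVC sites, and ANKRD28 (a phosphatase subunit) on chromosome 3 had 0 UVA and 23. ANK2, which encodes the membrane adaptor ankyrin-B on chromosome 4, had 1 UVA and 34 UVC sites, which put the ratio at 0.0338 with an interval of 0.000831 to 0.201. The last 4 were MAP3K4 (a stress kinase, chromosome 6) with 0 UVA and 22 UVC sites, and LCORL (a nuclear factor gene, chromosome 4), KAT6B (a histone acetyltransferase, chromosome 10) and ZNF609 (a zinc finger gene, chromosome 15) with 0 UVA and 21 UVC sites each. These windows start at 115800001, 197500001, 125300001, 15800001, 113800001, 161400001, 17900001, 76600001 and 64800001 in the order named. iCLIP sites were present in 9 of the 10, up to 13 in RNF217, and absent in DENND1B. Control sites were present in 5, with 3 sites without UV and 4 YFP sites in all.

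Median scores of the UVC sites in these 10 windows ran from 16 to 22, where the UVC list has a median of 21. Only the RNF217 window, at 22, lay above the list's median. The highest score in any CLASP2 site was 72. Of the 251 UVC sites 52 were exactly 39 nt wide and 26 exactly 50 nt, while over the whole UVC list 7.34% were 39 nt and 28.6% were 50 nt wide. In MAP3K4 10 of 22 and in RNF217 9 of 25 were 39 nt wide. Over all UVC-high windows 14.4% of UVC sites were 39 nt wide, against 1.27% in UVA-high windows and 5.201% in the windows between. The 50 nt width ran the other way, at 19.01% of UVC sites in UVC-high windows, 39.3% in UVA-high windows and 28.3% in the windows between.

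**Figure D3:**
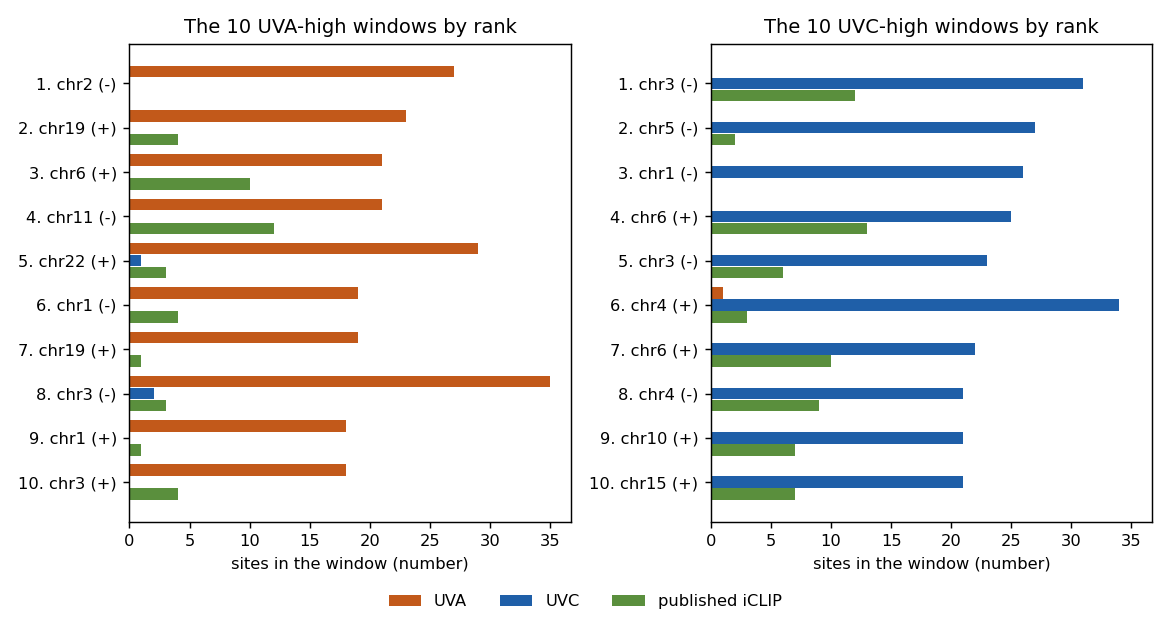
Number of sites (x axis) in the 10 highest-ranked UVA-high windows (left) and UVC-high windows (right), with UVA, UVC and published iCLIP bars for each window, named by chromosome and strand. UVA-high windows hold 18 to 35 UVA and 0 to 2 UVC sites, and UVC-high windows 0 to 1 UVA and 21 to 34 UVC sites.

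Ranking by number of sites instead, a rule added after the values were seen, gave windows where both arms were present. In MUC16, a gene for a very large membrane mucin, the 100 kb of chromosome 19 from 9000001 to 9100000, minus strand, had a UVA to UVC ratio of 8.04 (interval 3.81 to 19.5). Its 56 UVA sites ran from 9002204 to 9079781, 6 overlapped an iCLIP site, and 7 of its 8 UVC sites were exactly 50 nt wide. The window before it held 20 UVA and 6 UVC sites, and the one after it none. On the minus strand of chromosome 3 from 48600001 to 48700000 there were 46 UVA and 5 UVC sites (ratio 10.6, interval 4.22 to 34.1), and on the minus strand of chromosome 11 from 62400001 to 62500000 there were 49 and 16 (ratio 3.52, interval 1.97 to 6.63). Neither window lies in a single gene that could be named.

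On the UVC side, the fullest window was in SPEN, a transcriptional repressor gene, on the plus strand of chromosome 1 from 16200001 to 16300000. It held 10 UVA and 46 UVC sites, a ratio of 0.250 (interval 0.112 to 0.502). VEZT, an adherens junction gene on chromosome 12 (plus, from 95600001), held 7 UVA and 39 UVC sites, and BRWD1, a bromodomain gene on chromosome 21 (minus, from 40600001), held 9 and 37. Few UVA sites were present in these windows. Their median scores were 97.5 in SPEN, 394 in VEZT and 339 in BRWD1, against 80 over the list and 192 over all UVC-high windows. In SPEN 3 of the 10 UVA sites lay on a UVC site, and in BRWD1 4 of 9 did.

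Neighbouring windows on a strand often fell in the same class. When a UVA-high window was followed on its strand by a window of at least 10 sites, that next window was UVA-high in 118 of 339 cases (34.8%, interval 29.7 to 40.1) and UVC-high in 18. For UVC-high windows the next one was UVC-high in 152 of 319 cases (47.6%, interval 42.1 to 53.3) and UVA-high in 12. Over all windows of that size 16.6% were UVA-high and 18.2% UVC-high. A transcript can cross a window's edge, so neighbours are not independent.

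Runs of UVC-high windows (14 of 3 windows and 2 of 4) mostly lay where 1 gene could be named from general knowledge. How often other windows lie in 1 gene was not counted. A run of 4 on the minus strand of chromosome 18 from 52900001 to 53300000, which covers TCF4, a developmental transcription factor, held 3 UVA and 59 UVC sites with 27 iCLIP sites. DST, a cytoskeletal linker gene on the minus strand of chromosome 6, held 5 UVA and 51 UVC sites over 4 windows from 56400001. Runs of 3 windows lay in USP34 (8 UVA and 73 UVC sites), MYCBP2 (6 and 60), WDFY3 (4 and 43), VPS13A (14 and 55), FBN2 (2 and 50), FARP1 (4 and 40), PCLO (3 and 39), BACH2 (0 and 37), ATG7 (1 and 36) and SVIL (1 and 31). Their products include ubiquitin pathway enzymes (USP34, MYCBP2), autophagy factors (ATG7, WDFY3), a matrix protein (FBN2) and a synaptic scaffold (PCLO). The DENND1B window was part of such a run, with 0 UVA and 52 UVC sites over 3 windows.

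UVA-high windows formed 15 runs of 3 windows and 2 of 4, in regions where no single gene could be named from general knowledge. The gene content of the runs of either class was not measured. Those of 4 windows were on the minus strand of chromosome 19 from 58300001 to 58700000 (63 UVA and 12 UVC sites, 43 iCLIP sites) and on the plus strand of chromosome 7 from 100000001 to 100400000 (48 UVA and 9 UVC sites, 9 iCLIP sites). On chromosome 7 the opposite strand carried a run as well, from 100000001 to 100300000, with 38 UVA and 7 UVC sites. The fullest run of 3 was on the plus strand of chromosome 12 from 122300001 to 122600000, with 66 UVA, 12 UVC and 38 iCLIP sites.

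The opposite strand, which belongs to other transcripts, separated the classes. It held at least 1 UVA or UVC site in 608 of 941 UVA-high windows (64.6%, interval 61.5 to 67.7) and in 231 of 1032 UVC-high windows (22.4%, interval 19.9 to 25.1). The windows between stood at 53.1% (interval 51.5 to 54.7). Where the opposite strand of a UVA-high window had at least 10 sites, it was UVA-high in 100 of 283 cases (35.3%, interval 29.8 to 41.2) and UVC-high in 7. UVC-high windows had only 49 such partners, 7 of them UVA-high and 6 UVC-high.

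**Figure D4:**
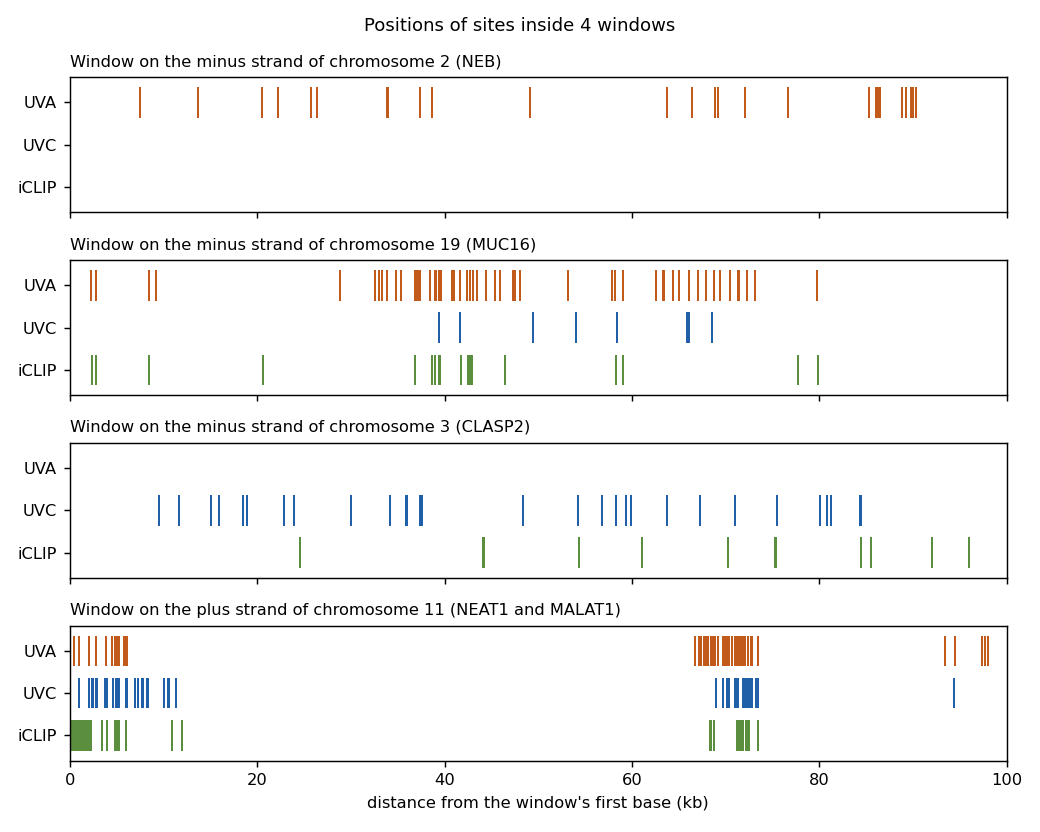
Sites of UVA, UVC and published iCLIP (a line per site) by distance in kb from the first base of 4 windows, with gene names from general knowledge. NEB carries 27 UVA sites and no other, MUC16 carries 56 UVA and 8 UVC sites, CLASP2 carries 31 UVC sites and no UVA site, and the NEAT1 and MALAT1 window carries 48 UVA and 44 UVC sites in shared blocks.

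Some transcripts were dense in both arms. The window from 65200001 to 65300000 on chromosome 11 (plus strand) held 48 UVA and 44 UVC sites, with 40 iCLIP, 7 no-UV and 9 YFP sites. It contains the end of NEAT1, the long noncoding RNA that builds paraspeckles, and MALAT1, an abundant noncoding RNA of nuclear speckles. Within its first 20 kb, in NEAT1, UVA had 12 sites, none beyond 65206110, and UVC had 27, the last ending at 65211335. Between 60 and 80 kb, in MALAT1, the numbers were 31 UVA and 16 UVC, with UVA sites starting at 65266711 and UVC sites at 65268892. The arms thus leaned opposite ways in these parts of a window that was even as a whole (ratio 1.25, interval 0.815 to 1.93). The parts were chosen after the positions were seen. Only the end of NEAT1 was counted here, and the window before held 53 UVA and 24 UVC sites. A lean of NEAT1 as a whole was therefore not measured.

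The other dense windows had UVA to UVC ratios of 1.23 to 1.55, and only for the first did the counting interval leave out 1 (1.04 to 2.32). The 100 kb of chromosome X from 73000001 to 73100000, minus strand, held 62 UVA and 46 UVC sites but only 6 iCLIP sites, along with 33 sites without UV and 31 YFP sites, the most control sites of the 5 windows. Its median UVA score was at the limit of 1000, and 29 of the 62 UVA sites overlapped a UVC site. On the plus strand of chromosome X from 47000001 to 47100000 there were 45 UVA and 42 UVC sites, with 30 iCLIP sites and no control site. The plus strand of chromosome 3 from 184000001 held 44 UVA and 35 UVC sites, and the minus strand of chromosome 17 from 46600001 held 39 and 35, with 36 iCLIP sites.

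Over all windows 12.6% of UVA sites overlapped a UVC site by at least 1 nt on the same strand, and 11.3% of UVC sites overlapped a UVA site. In UVA-high windows 888 of 14223 UVA sites (6.24%, interval 5.85 to 6.65) overlapped a UVC site, and 888 of 2844 UVC sites (31.2%, interval 29.5 to 33.0) overlapped a UVA site. In UVC-high windows 317 of 1488 UVA sites (21.3%, interval 19.2 to 23.5) lay on a UVC site and 319 of 14319 UVC sites (2.23%, interval 1.99 to 2.48) on a UVA site. In the windows between, the shares were 16.8% of UVA sites and 17.3% of UVC sites. The overlapping sites of the arms were nearly equal in number within each class, so the gap between their shares follows from the list sizes that define the class.

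The published iCLIP list, which the window rule did not use, was present in both classes. At least 1 iCLIP site was found in 858 of 941 UVA-high windows (91.2%, interval 89.2 to 92.9), in 857 of 1032 UVC-high windows (83.0%, interval 80.6 to 85.3) and in 96.4% of the windows between. For every 100 UVA and UVC sites together there were 35.6 iCLIP sites in UVA-high windows, 25.4 in UVC-high windows and 35.4 in the windows between. Over the whole lists 18.95% of UVA sites and 6.25% of UVC sites lay on an iCLIP site. For UVC sites this share was lower in UVC-high than in UVA-high windows, and for UVA sites it was higher. In UVA-high windows 16.7% of UVA sites (interval 16.1 to 17.3) and 11.5% of UVC sites (interval 10.3 to 12.7) lay on an iCLIP site. In UVC-high windows 19.96% of the few UVA sites (interval 17.96 to 22.1) did so, but 3.23% of UVC sites (interval 2.94 to 3.53). In the windows between, the shares were 23.1% of UVA and 9.24% of UVC sites.

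Control sites were present in a larger share of UVC-high than of UVA-high windows. The list without UV reached 97 UVA-high windows (10.3%, interval 8.44 to 12.4), 230 UVC-high windows (22.3%, interval 19.8 to 24.95) and 20.8% of the windows between. For YFP the numbers were 63 (6.70%), 97 (9.40%) and 10.8%. Few sites lay on a control site itself: in UVA-high windows 0.267% of UVA sites overlapped a site without UV, and in UVC-high windows 0.112% of UVC sites did. With sites on a control peak left out of both lists, 950 windows were UVA-high and 1030 UVC-high, and 934 and 1027 of these were among the windows called with all sites.

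Scores within the UVA list moved with the window class. UVA sites had a median score of 55 (quartiles 28 and 115) in UVA-high windows, 192 (quartiles 91 and 373) in UVC-high windows and 118 (quartiles 54 and 247) in the windows between. UVA-high windows held 22.1% of UVA sites scoring up to 20, 28.1% of those above 20 and up to 50 and 8.07% of those at the limit of 1000. UVC scores had nearly the same median in each class, at 20 in UVA-high, 19 in UVC-high and 21 in the windows between. UVC-high windows still held 19.02% of UVC sites scoring up to 20 and 2.65% of those above 200 and up to 500, but 0 of the 72 sites above 500 and below the limit (interval up to 4.99%) and 0 of the 60 at the limit (interval up to 5.96%). UVA-high windows held 5 and 12 of these. In both arms, windows that favoured the arm held a smaller share of its highest-scoring sites than of its lowest-scoring ones. UVA sites in UVA-high windows were also wider (median 42 nt) than in UVC-high windows (32 nt).

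Chromosomes differed in which class they held. UVA-high windows were most frequent on chromosomes 16 (73 of 228, 32.0%, interval 26.01 to 38.5) and 19 (114 of 361, 31.6%, interval 26.8 to 36.6), where UVC-high windows made up 7.46% and 1.39%. On chromosome 18 the shares were 7.27% UVA-high and 34.5% UVC-high (38 of 110, interval 25.7 to 44.2), on chromosome 4 12.2% and 29.1%, on chromosome 10 4.24% and 26.3% and on chromosome 13 2.97% and 25.7%. Chromosomes 7, 9 and 14 had both classes at similar rates. Without chromosomes 16 and 19, 754 windows (14.8%) were UVA-high and 1010 (19.9%) UVC-high, so most windows of both classes lay elsewhere.

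**Figure D5:**
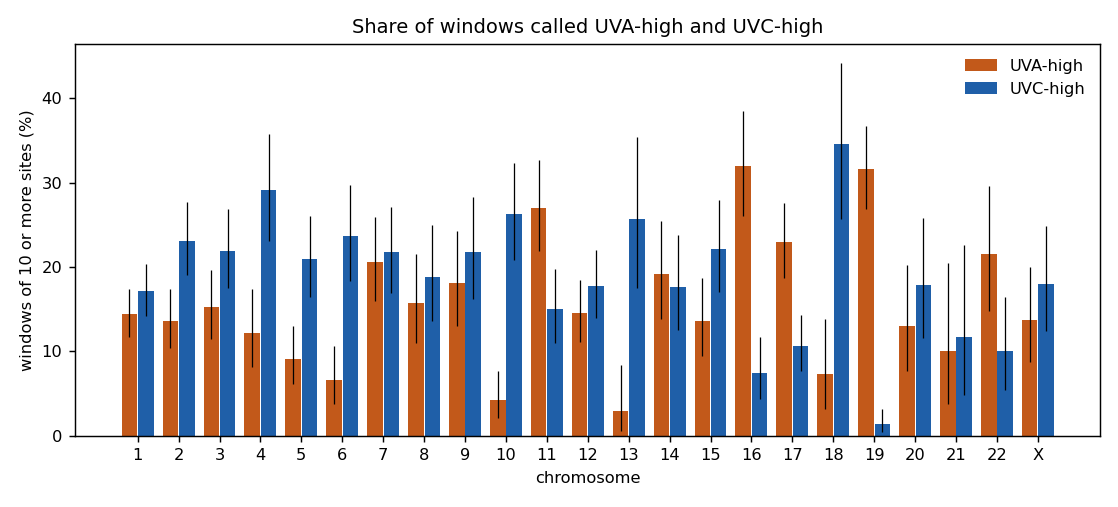
Percentage of each chromosome's windows of at least 10 sites (y axis) that were UVA-high and UVC-high, with exact 95% intervals as error bars. Chromosomes 16 and 19 stand at 32.0% and 31.6% UVA-high, and chromosome 18 stands at 34.5% UVC-high.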

How the data were processed

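The 8 GoldCLIP samples fall into 4 groups of 2 by their titles, and each group has 1 deposited peak list without replicate names; the way replicates were combined is not stated. Reads were mapped with Bowtie 1.1.2, and hg19 and dm3 are named as builds, per the submitters' processing notes. Per the series text, the submitters derived the iCLIP peaks by the procedure of the other lists. Not given in the sources used here are the peak caller, its filters and the role of dm3. Positions were read as hg19. The deposited score of each peak is limited to 1000, and a peak with a score of 0 and a p-value of 0 was taken as lying at that limit. The deposited p-value of a peak was at most 0.05 in each of the 5 lists. Depth is unknown, so scores were compared only within a list.

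Peaks within 20 nt on a strand were merged into sites with the highest score of their peaks, and sites were assigned to 100 kb windows by midpoint. Overlap meant at least 1 nt on the same strand. Intervals are exact Clopper-Pearson 95% intervals, which cover counting error only. Each arm is 1 list, so no test between arms was made and no p-value is given. The members, windows and lists were chosen with earlier results of these data known. The named windows are the 10 highest by interval bound in each class and the 5 fullest in both arms, and other windows were added after their values were seen. Merging and overlaps were checked against bedtools on the UVA and UVC lists themselves. The rule for UVA-high and UVC-high windows was tried on simulated counts with known changes. These counts were drawn independently, so clustering of sites was not covered. The assignment of sites to windows was not tested.

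No genome or annotation of hg19 was used, so no sequence is printed, and counts by gene, the gene lists and the markers of 293T cells were not analysed here. The gene names given with windows rest on general knowledge of hg19 and were chosen after the values were seen. In the RefSeq table of the GRCh38.p14 build, 31 of 31 of these symbols are on the same chromosome and 28 of 28 with a listed strand are on the same strand; their hg19 positions were not checked, and no value depends on a name. Tables were handled in pandas 2.3.3 and numpy 2.4.6 under Python 3.11.15, intervals were computed with scipy 1.17.1, and plots were drawn with matplotlib 3.10.9. The alternatives changed the merging distance, window size and grid, the minimum of sites, the sites kept, the strand rule and the measure; those on 50 nt and 39 nt sites, on merging within 1000 nt and on adding nothing to the counts, and every alternative for the share of windows with an iCLIP site, were chosen after seeing the data.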

Additional observations from a re-analysis of the deposited data

How the results depend on the processing

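No window called UVA-high or UVC-high moved to the opposite call in any alternative that kept the same windows. Such a move has to pass both limits, and many windows lost their call instead. With sites at or above the median score, 23.2% of the UVA-high and 17.9% of the UVC-high windows kept their call. Without sites of 39 or 50 nt 71.6% and 49.7% did, and with sites on a control peak left out 99.3% and 99.5%. Numbers of windows depended on the settings, in this order UVA-high and UVC-high, against 941 and 1032 as reported. Windows of 1000 kb gave 252 and 570, sites at or above the median score 515 and 207, a minimum of 20 sites 316 and 188, and merging within 1000 nt 347 and 511. UVC-high windows numbered 1881 without merging, 664 at 50 kb and 659 without sites of 39 or 50 nt. UVA-only and UVC-only windows numbered 4630 and 8503 at 50 kb and 440 and 337 at 1000 kb. They numbered 1191 and 5734 at or above the median score and 1819 and 3691 with strand ignored. The causes were not tested.

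The share of UVA-high windows with an iCLIP site, reported as 91.2%, was 89.2% at 50 kb, 96.8% at 1000 kb, 98.6% at or above the median score, 94.1% with strand ignored, 99.1% with at least 20 sites, 97.1% with merging within 1000 nt, 94.1% without 50 nt sites and 93.8% without 39 or 50 nt sites. For UVC-high windows, reported as 83.0%, it was 73.3% without merging, 87.5% at 1000 kb, 88.9% at or above the median score, 97.9% with at least 20 sites, 85.6% by covered nucleotides, 86.3% without 50 nt sites and 90.6% without 39 or 50 nt sites. Spearman's rho, reported as 0.298, was 0.280 without merging, 0.175 at 50 kb, 0.680 at 1000 kb, 0.283 at or above the median score, 0.407 with strand ignored, 0.257 with equal numbers of sites, 0.256 with merging within 1000 nt, 0.184 without 50 nt sites and 0.211 without 39 or 50 nt sites.

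No paired analysis was possible because each arm has 1 list with no replicate numbers, and for the same reason no replicate was left out. The alternatives by gene were not run, since no annotation of hg19 was used. With unknown depth, a window without sites in an arm cannot be told apart from one too shallow to give a peak.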
